A study of Mus musculus with 12 samples.

Results

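Mid1, the gene of a microtubule-associated ubiquitin ligase, was examined with its paralog Mid2 and with Igbp1 and Ppp2ca, the genes of the regulatory protein alpha4 and of a catalytic subunit of protein phosphatase 2A (PP2A). These 4 genes were taken by name from 19938 genes measured in adult mice lacking RasGRF2 and in wild-type mice. Mid1 was chosen by its measured decrease in knockout, the largest of all genes in both tissues, so its difference between genotypes is given below as a description, without a test. The partners were added for what they are known to do with Mid1, with earlier results of these data known. Each of the 4 genes is read by 1 probe set with a single gene symbol.

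The study compared 2 brain tissues, hippocampus and olfactory bulb, of 3 mice labelled GRF2 KO with those of 3 mice labelled WT, all of strain C57BL/6 and adult. The 12 samples of total RNA, each on its own 1-colour array, form 4 groups of 3 (wild-type hippocampus, knockout hippocampus, wild-type bulb, knockout bulb), and the arrays of a group come from animals with different codes. The labels name no cell type restriction or inducing agent for the knockout, and the sources used here do not say which exons are deleted or whether the animals were littermates. Values are the deposited intensities on the log2 scale, summarised by RMA (robust multi-array average), and a difference of 1 on this scale is a doubling.

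MID1 is a RING-type E3 ligase of the tripartite motif (TRIM) family that lies along microtubules, and loss of the human gene causes Opitz syndrome, a disorder of midline development. Through a B-box it binds alpha4, which in turn holds the PP2A catalytic subunit, and it promotes the ubiquitination and turnover of that subunit. PP2A is one of the main serine/threonine phosphatases of neurons, and the MID1-alpha4-PP2A complex is known to bear on mTORC1 signalling and on the Hedgehog factor GLI3. In the laboratory mouse Mid1 spans the boundary between the X-specific part of the X chromosome and the pseudoautosomal region, which recombines with the Y chromosome.

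The RefSeq gene table (assembly GRCm38.p6) lists 20 transcripts of Mid1 against 4 of Mid2 and 1 each of Igbp1 and Ppp2ca. RefSeq places 3 start windows in Mid1 and 1 in each of the other genes. The windows of Mid1 and of its paralog are shown because Mid1 is the gene whose level separates the genotypes and Mid2 is the one most like it in sequence and function. Each runs from 250 bases before to 50 bases after an annotated start, on the plus strand of GRCm38.p6, 5′ to 3′, and capitals mark CG dinucleotides.
Mid1 first start, chrX:169684949-169685248: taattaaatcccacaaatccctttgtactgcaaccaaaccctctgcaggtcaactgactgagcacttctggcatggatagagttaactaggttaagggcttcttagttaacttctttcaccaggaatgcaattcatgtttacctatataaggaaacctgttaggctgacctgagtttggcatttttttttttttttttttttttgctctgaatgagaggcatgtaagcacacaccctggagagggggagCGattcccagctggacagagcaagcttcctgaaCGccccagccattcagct
Mid1 second start, chrX:169827909-169828208: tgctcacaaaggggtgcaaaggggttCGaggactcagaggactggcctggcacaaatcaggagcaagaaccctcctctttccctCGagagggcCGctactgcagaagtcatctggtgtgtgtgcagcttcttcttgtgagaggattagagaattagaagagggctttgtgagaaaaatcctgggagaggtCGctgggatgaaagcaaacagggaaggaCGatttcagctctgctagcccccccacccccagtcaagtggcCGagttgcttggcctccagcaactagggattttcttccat
Mid1 last start, chrX:169879369-169879668: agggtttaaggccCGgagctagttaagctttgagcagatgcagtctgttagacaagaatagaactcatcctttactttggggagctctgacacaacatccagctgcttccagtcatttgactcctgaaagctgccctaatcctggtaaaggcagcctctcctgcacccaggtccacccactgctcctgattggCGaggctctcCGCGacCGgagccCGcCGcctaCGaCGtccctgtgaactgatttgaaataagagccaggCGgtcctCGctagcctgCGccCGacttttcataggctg
Mid2 start, chrX:140664706-140665005: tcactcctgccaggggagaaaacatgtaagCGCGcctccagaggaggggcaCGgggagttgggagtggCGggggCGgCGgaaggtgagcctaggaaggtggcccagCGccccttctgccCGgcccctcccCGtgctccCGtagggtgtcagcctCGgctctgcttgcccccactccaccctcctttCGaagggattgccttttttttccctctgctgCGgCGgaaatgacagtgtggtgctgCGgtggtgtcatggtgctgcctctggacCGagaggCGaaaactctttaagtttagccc
The first window of Mid1 holds 2 CG dinucleotides, the second 6 and the last 13, where the median over 32851 mouse windows of this length is 7. Mid2 holds 17, Igbp1 10 and Ppp2ca 34. The letters TATAAA, searched on both strands, occur in none of these 6 windows and in 13.6% of all windows. GGGCGG, the core of an Sp1 motif, occurs in the windows of Mid2 and Ppp2ca and in 35.7% of all. CCAAT occurs in the last Mid1 window and in that of Igbp1, and in 37.4% of all. TGACGTCA, the cyclic AMP response element, occurs in Ppp2ca alone of the 6 and in 1.79% of all. CACGTG, one form of the E-box, occurs in Igbp1 alone of the 6 and in 7.15% of all, and other forms were not searched. The sources used here do not place the Mid1 probes along the transcripts, so the value of the gene is not assigned to any of the starts.

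The tissues carried the markers of their labels. Cdhr1, made in mitral and tufted cells, lay between 10.85 and 11.01 in the bulb arrays and between 6.85 and 6.99 in hippocampus, and Neurod6, a factor of pyramidal neurons, between 10.07 and 10.51 in hippocampus and between 6.07 and 6.44 in bulb. Array medians lay between 6.82 and 6.96. The targeted gene Rasgrf2 read 8.49 to 8.76 in knockout against 9.14 to 9.32 in wild-type hippocampus, and 9.33 to 9.43 against 9.47 to 9.52 in bulb. The groups did not overlap in either tissue, as for 2.68% of all genes. In bulb alone 17.1% of all genes did not overlap, and the gap of Rasgrf2 there was 0.039. The hippocampal difference of -0.58 passed (limma adjusted p = 0.00197), and the bulb difference of -0.14 did not (limma adjusted p = 0.532). Whether the Rasgrf2 probes lie within the deleted part is unknown here.

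Mid1 was lower in every knockout array than in every wild-type array of the same tissue. Genotypes did not overlap in both tissues for 2.68% of all genes, and 0.11% in hippocampus and 0.226% in bulb were called lower in knockout, figures from which nothing is read for Mid1 because the same values chose it. In hippocampus the wild-type arrays read 9.80, 9.71 and 9.97 and the knockout arrays 7.65, 7.68 and 7.62. The lowest wild-type value thus stood 2.02 above the highest knockout value, and the 3 knockout arrays lay close together. Group means were 9.82 ± 0.13 and 7.65 ± 0.034 (SD, n = 3), a difference of -2.17 (SE 0.0903), so that the knockout intensity was 22.1% of the wild-type one. In the bulb the wild-type arrays read 10.53, 10.65 and 10.38 and the knockout arrays 8.11, 8.24 and 7.97. The gap between the groups was 2.14, again wide against the spread within either. Means were 10.52 ± 0.13 and 8.11 ± 0.14, a difference of -2.41 (SE 0.0903), or 18.8% of the wild-type intensity. The next largest decrease in each tissue was that of Pttg1, the securin gene, at -1.90 in hippocampus and -1.70 in bulb. Whole tissue was read, so fewer cells that make Mid1 and less Mid1 RNA per cell cannot be told apart.

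Signal for Mid1 remained in the knockout arrays. It stood 0.73 to 0.83 above the array median in knockout hippocampus and 1.04 to 1.29 above it in knockout bulb, against 2.86 to 3.15 and 3.43 to 3.70 in the wild-type tissues. RMA compresses differences near background, and no detection call is among the values used here.

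**Figure D1:**
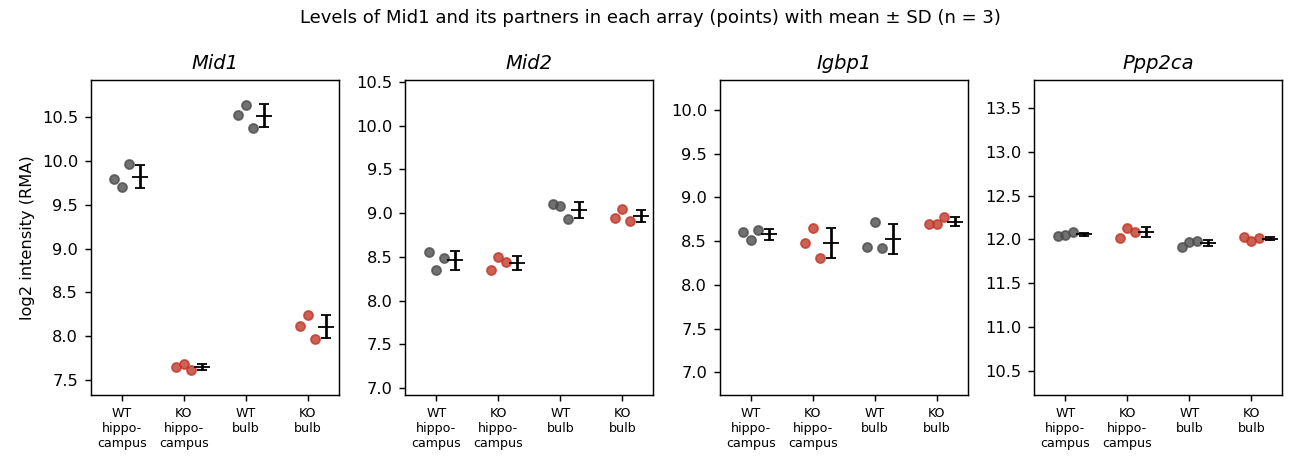
Log2 intensity (RMA, vertical axis, 3.6 units in every panel) of Mid1, Mid2, Igbp1 and Ppp2ca in each of the 12 arrays (points) with group means and SD (bars, n = 3), wild type in grey and knockout in red. Mid1 falls from 9.82 to 7.65 in hippocampus and from 10.52 to 8.11 in bulb, while the groups of the other genes lie within 0.20 of each other between genotypes.

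The level of Mid1 also differed between the tissues. The choice of the gene used no contrast of tissues, but it used the same 12 values, so the tests below are not independent of it. Of all genes, 23.4% were called lower in hippocampus than in bulb in wild type and 19.9% in knockout. Mid1 was higher in bulb than in hippocampus in wild type, with a difference of hippocampus minus bulb of -0.70 (SE 0.0903, limma adjusted p = 1.58e-05). The same order held in knockout, at -0.46 (SE 0.0903, limma adjusted p = 0.000734). In both genotypes all 3 bulb arrays lay above all 3 hippocampal arrays. From highest to lowest the groups were wild-type bulb, wild-type hippocampus, knockout bulb and knockout hippocampus, and no neighbours in this order overlapped. The decrease in hippocampus was smaller than that in bulb by 0.24 (SE 0.128), which is given without a test because both decreases chose the gene.

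Mid2 encodes the closest relative of MID1, which also binds alpha4 and microtubules. It read 8.55, 8.35 and 8.48 in wild-type hippocampus and 8.35, 8.50 and 8.44 in knockout hippocampus. In the bulb it read 9.10, 9.08 and 8.93 in wild type and 8.94, 9.05 and 8.91 in knockout. The genotypes overlapped in both tissues, whereas all bulb arrays lay above all hippocampal arrays. Knockout minus wild type was -0.03 in hippocampus (95% interval -0.19 to 0.14, limma adjusted p = 0.924) and -0.07 in bulb (-0.24 to 0.09, limma adjusted p = 0.756). A change of Mid2 within these intervals is not shown to be absent. Like Mid1, Mid2 was lower in hippocampus than in bulb, with hippocampus minus bulb at -0.58 in wild type (SE 0.0772, limma adjusted p = 2.08e-05) and -0.54 in knockout (SE 0.0772, limma adjusted p = 4.34e-05).

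Igbp1 encodes alpha4, which keeps newly made PP2A catalytic subunits from degradation. The wild-type hippocampal arrays read 8.60, 8.51 and 8.63 and the knockout ones 8.48, 8.65 and 8.31. In the bulb the wild-type arrays read 8.43, 8.72 and 8.42 and the knockout ones 8.69, 8.69 and 8.78. Genotypes overlapped in both tissues, in the bulb through wild-type replicate 2 alone. The difference was -0.10 in hippocampus (95% interval -0.30 to 0.11, limma adjusted p = 0.771) and 0.20 in bulb (-0.0092 to 0.40, limma adjusted p = 0.467), and neither passed. The difference between these effects was -0.29 (SE 0.135), with a limma p of 0.0476 before and 0.466 after adjustment over all genes, of which 0.015% were called, all with the lower effect in hippocampus. Hippocampus minus bulb was 0.05 in wild type (limma adjusted p = 0.698) and -0.24 in knockout (SE 0.0957, limma adjusted p = 0.0594). The latter passed in 5 of 20 alternative analyses, where its adjusted p ran from 0.0118 to 0.246.

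Ppp2ca encodes the alpha isoform of the PP2A catalytic subunit, the protein that MID1 marks for turnover. In hippocampus it read 12.04, 12.05 and 12.08 in wild type and 12.02, 12.13 and 12.08 in knockout. In bulb it read 11.92, 11.97 and 11.98 in wild type and 12.02, 11.99 and 12.02 in knockout. The hippocampal groups overlapped, and the bulb groups stood apart by 0.0011. In bulb 17.1% of all genes had groups that do not overlap. Knockout minus wild type was 0.02 in hippocampus (95% interval -0.11 to 0.15, limma adjusted p = 0.928) and 0.05 in bulb (-0.08 to 0.18, limma adjusted p = 0.779). The tissues did not differ past the threshold either, at 0.10 in wild type (limma adjusted p = 0.209) and 0.07 in knockout (limma adjusted p = 0.392). With arrays centred on their medians the wild-type difference was 0.21 and passed (limma adjusted p = 0.0151). Arrays read RNA, so the amount of the PP2A protein was not measured.

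Other genes of the complex and of the pathways it is known to bear on were followed through 7 lists, of which 58 genes besides Mid1 were measured. By limma, 0 of the 58 passed between genotypes in hippocampus at an adjusted p of 0.05, where 0.256% of all genes passed, and 0 passed in bulb, where 0.411% did. At an unadjusted p under 0.05 there were 3 in hippocampus and 6 in bulb, against 1776 and 2245 of the 19938 genes. The median difference was 0.02 in hippocampus and 0.01 in bulb, beside 0.03 and -0.02 over all genes. Knockout and wild-type arrays did not overlap for 13 of the 58 in hippocampus (22.4%, beside 13.1% of all genes) and for 19 in bulb (32.8%, beside 17.1%). In both tissues at once this was so for 5 of the 58 (8.62%, beside 2.68%), which were Gli2, Ppp2r5b, Strn4, Sufu and Trim9. The gaps between their groups were narrow. They ran from 0.00047 (Trim9) to 0.027 (Ppp2r5b) in hippocampus and from 0.023 (Trim9) to 0.062 (Strn4) in bulb. Gli2 differed in opposite directions, at 0.07 in hippocampus and -0.22 in bulb. None of these list genes was called under any of the 20 alternatives run for either tissue.

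**Figure D2:**
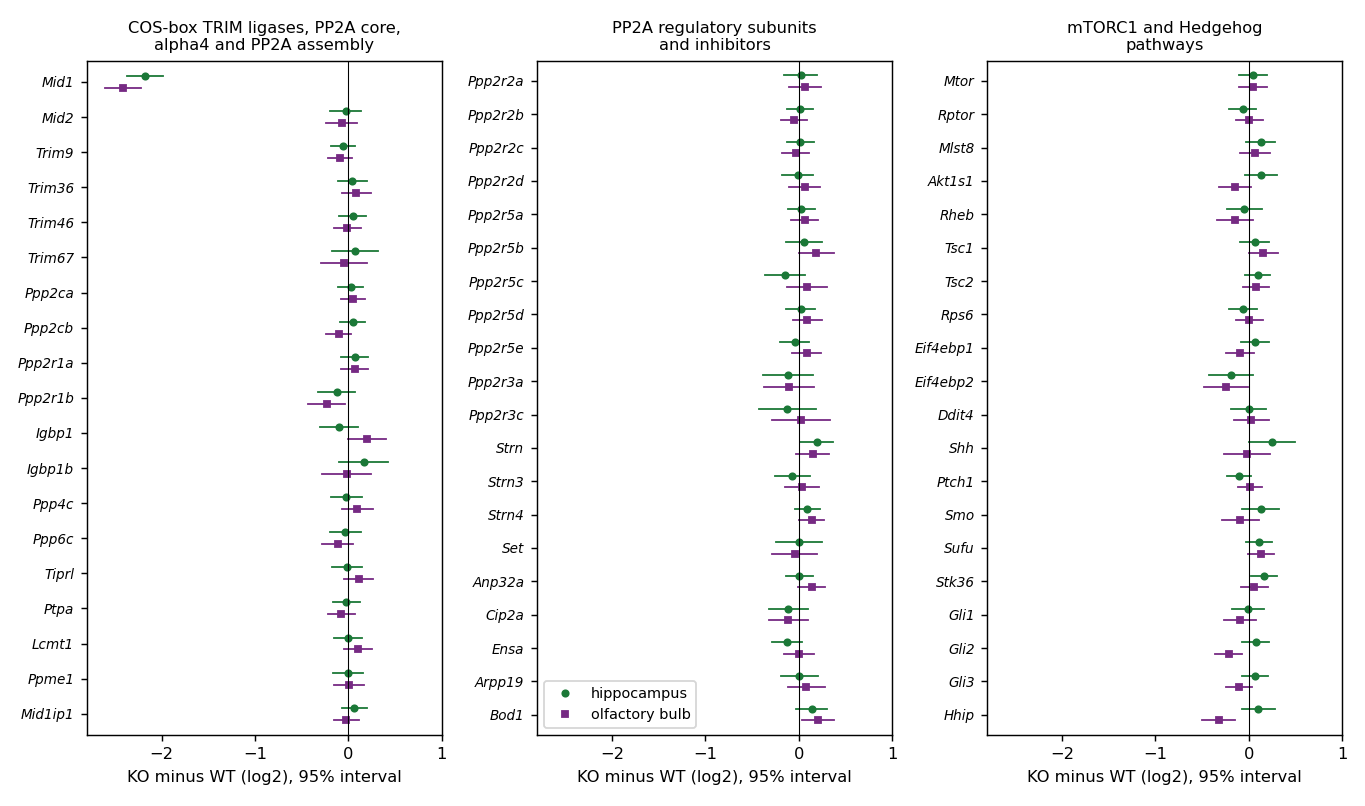
Knockout minus wild type on the log2 scale (horizontal axis) with limma's 95% interval (lines) for 59 genes of the 7 lists, hippocampus as green circles and olfactory bulb as purple squares. Mid1 stands at -2.17 and -2.41, and the other 58 genes lie between -0.32 and 0.25.

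The other TRIM ligases with the microtubule-targeting COS box did not pass between genotypes. Of Mid2, Trim9, Trim36, Trim46 and Trim67, 3 lay higher and 2 lower in knockout hippocampus and 1 higher and 4 lower in bulb, all between -0.10 and 0.08. Trim9, a neuronal ligase of axon branching, had the smallest p of them, at -0.10 in bulb (SE 0.0600, limma adjusted p = 0.571). Trim36 differed by 0.08 in bulb (limma adjusted p = 0.691).

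Among the PP2A core genes the scaffold gene Ppp2r1b differed most, at -0.24 in bulb (SE 0.0929, limma adjusted p = 0.382) and -0.13 in hippocampus. Its bulb arrays read 7.91, 7.91 and 7.65 in wild type and 7.64, 7.57 and 7.56 in knockout. These groups parted by a small margin, and 17.1% of all genes had bulb groups that do not overlap. Ppp2cb, the gene of the other catalytic isoform, differed by -0.11 in bulb (limma adjusted p = 0.549) and the main scaffold gene Ppp2r1a by 0.07 (limma adjusted p = 0.738). Regulatory subunits steer the phosphatase to its substrates, and 11 of the 14 measured lay above 0 in bulb and 8 in hippocampus, with medians of 0.07 and 0.02. Over all genes 8869 of 19938 lay above 0 in bulb and 12569 in hippocampus. The striatin gene Strn differed by 0.19 in hippocampus (limma adjusted p = 0.537), Strn4 by 0.14 in bulb (limma adjusted p = 0.433) and Ppp2r5b by 0.19 in bulb (limma adjusted p = 0.444).

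Genes that assemble or restrain PP2A did not pass either. Of the 9 genes around alpha4, Tiprl, whose product also binds catalytic subunits, differed by 0.11 in bulb (limma adjusted p = 0.589), and the subunit methyltransferase gene Lcmt1 by 0.10 (limma adjusted p = 0.590). Mid1ip1, whose product binds MID1, differed by -0.02 in bulb and 0.06 in hippocampus. Of the 6 inhibitor genes, Bod1 differed by 0.21 in bulb (limma adjusted p = 0.364), Anp32a by 0.14 in bulb (limma adjusted p = 0.459) and Ensa by -0.13 in hippocampus (limma adjusted p = 0.634).

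Of 11 mTORC1 genes, Eif4ebp2, which encodes a translational repressor that mTORC1 phosphorylates, lay at -0.25 in bulb (limma adjusted p = 0.425) and -0.19 in hippocampus. Tsc1, an inhibitor of the pathway, differed by 0.15 in bulb (limma adjusted p = 0.453), and Akt1s1 by -0.15 in bulb and 0.13 in hippocampus. Of 9 Hedgehog genes, Hhip, whose product binds and restrains the ligand, had the smallest p of all 58 genes. Its bulb arrays read 6.45, 6.40 and 6.30 in wild type and 5.93, 6.09 and 6.17 in knockout. All knockout values lay below the wild-type ones, in a tissue where the groups of 17.1% of all genes did not overlap. The bulb difference of -0.32 (SE 0.0831) did not pass over all genes (limma adjusted p = 0.151). In hippocampus Hhip differed in the opposite direction, by 0.10 (limma adjusted p = 0.731). The transcription factor gene Gli2 differed by -0.22 in bulb (limma adjusted p = 0.260) and Gli3, the factor tied to MID1, by -0.11. Stk36, the Fused homolog that MID1 is known to ubiquitinate, differed by 0.16 in hippocampus (limma adjusted p = 0.529).

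The genes along the chromosome around Mid1 were then examined, 12 measured neighbours in the order of the RefSeq gene table, 10 on one side and 2 on the other. None of the 12 passed in either tissue (smallest limma adjusted p 0.558 in hippocampus and 0.411 in bulb). Of all genes 0.256% passed in hippocampus and 0.411% in bulb. At an unadjusted p under 0.05 there was 1 in each tissue, beside 1776 of all 19938 genes in hippocampus and 2245 in bulb. Hccs, the holocytochrome c synthase gene next to Mid1, read 8.91, 8.83 and 8.92 in wild-type and 8.98, 8.93 and 8.82 in knockout hippocampus. In bulb it read 9.24, 9.15 and 9.15 in wild type and 9.23, 9.27 and 9.21 in knockout. The groups overlapped in both tissues, with differences of 0.02 (95% interval -0.12 to 0.16) and 0.06 (-0.08 to 0.20). Amelx, the gene of the enamel protein amelogenin, lay at 4.36 to 4.59 in all arrays, far below the array medians. Its groups did not overlap in either tissue, as for 2.68% of all genes. It differed in opposite directions, at 0.09 in hippocampus (limma adjusted p = 0.661) and -0.12 in bulb (limma adjusted p = 0.486).

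On the other side, the table places 4933400A11Rik and the long non-coding RNA gene G530011O06Rik. The former lay at 3.74 to 4.01 in all arrays. Its groups overlapped in bulb and stood apart by 0.00079 in hippocampus, where 13.1% of all genes did not overlap. G530011O06Rik read 7.68, 7.88 and 7.97 in wild-type and 7.52, 7.83 and 7.56 in knockout hippocampus, and 8.02, 8.47 and 8.21 in wild-type and 8.02, 8.04 and 8.07 in knockout bulb. The groups overlapped in both tissues, at differences of -0.21 (limma adjusted p = 0.610) and -0.19 (limma adjusted p = 0.546). Of the other 741 X-linked genes measured, limma called 0 in each tissue, beside 0.256% of all genes in hippocampus and 0.411% in bulb, shares that would leave few calls among so many genes. At an unadjusted p under 0.05 there were 56 in hippocampus and 72 in bulb, beside 1776 and 2245 of all 19938 genes. Some alternatives did call other X-linked genes: the count, which includes Mid1, reached 5 in hippocampus with array weights and 5 in bulb without wild-type bulb replicate 3.

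**Figure D3:**
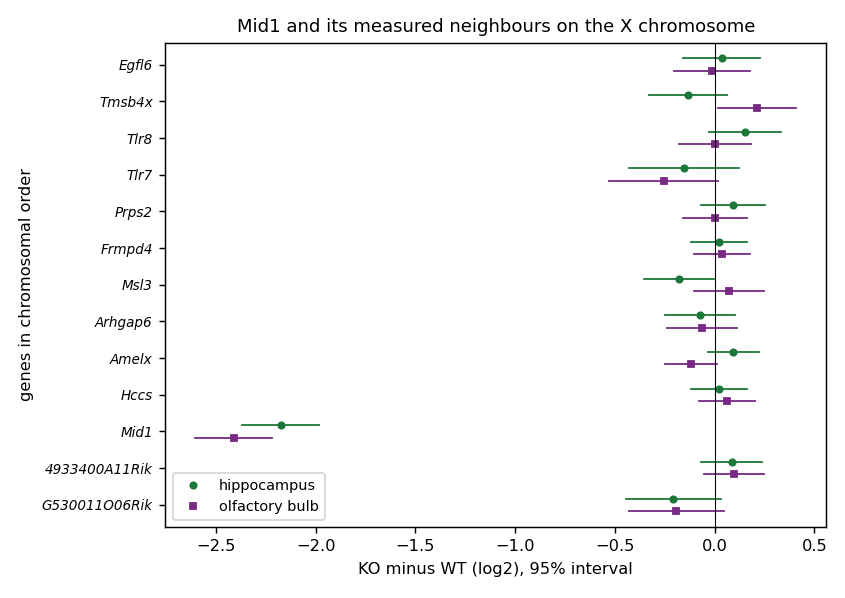
Knockout minus wild type on the log2 scale (horizontal axis) with limma's 95% interval (lines) for Mid1 and its 12 measured neighbours in chromosomal order (vertical axis, not to distance), hippocampus as green circles and bulb as purple squares. The neighbours lie between -0.26 and 0.21, against -2.17 and -2.41 for Mid1.

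The genes whose pattern was most like that of Mid1 were sought by Pearson correlation over the 12 arrays after each tissue was centred on its mean. The 5 highest were Snapc1 (0.977), Slc38a6 (0.976), Ivd (0.973), Mcmdc2 (0.973) and Pttg1 (0.972). The 5 lowest were the serotonin receptor gene Htr3a (-0.971), Ocel1 (-0.966), Slc39a2 (-0.964), the small heat shock protein gene Cryab (-0.963) and Rnps1 (-0.962). None of the 10 lies on the X chromosome, which holds only 742 of the 19938 genes measured. The values of Mid1 fall into separate clusters by genotype, so a high correlation largely restates that split. With each of the 4 groups centred on its own mean, the correlations of the same 10 genes with Mid1 ran from -0.38 to 0.51. All 12 values come from arrays that share animals across tissues, and the correlations are descriptions.

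Markers of other cell types were read beside Mid1. By limma 0 of 50 markers passed between genotypes in hippocampus, and 1 passed in bulb, Dlx5, a factor of bulb interneurons, which was higher in knockout by 0.84 (limma adjusted p = 0.00117), beside the 0.256% and 0.411% of all genes called in these tissues. At an unadjusted p under 0.05 there were 9 of 50 markers in hippocampus and 8 in bulb, beside 1776 and 2245 of all 19938 genes. In hippocampus these included 3 of 3 ependymal genes (0.23 to 0.33) and 3 of 4 oligodendrocyte genes. All 4 of the latter lay between 0.10 and 0.35 there, and in bulb 0 genes of these 2 lists were included. The mean levels of the 11 marker lists differed between genotypes by -0.22 to 0.26 in hippocampus and by -0.33 to 0.27 in bulb. Over all single genes, genotypes did not overlap for 13.1% in hippocampus and 17.1% in bulb. For the means of the marker lists this was so for 2 of 11 in each tissue. In hippocampus these were the ependymal list (6.13 to 6.38 in wild type, 6.44 to 6.68 in knockout) and the list of bulb neuron markers (6.47 to 6.60 and 6.64 to 6.67). In bulb they were the bulb neuron list (9.84 to 9.88 in wild type, 10.10 to 10.15 in knockout) and the general neuron list (12.06 to 12.20 and 11.97 to 12.04). Of the 6 genes of the bulb neuron list, Dlx5 and Eomes differed by 0.84 and 0.36 in bulb. Doc2g, Tbx21, Th and Cdhr1 differed by 0.15, 0.12, 0.12 and 0.02 there. Of the 4 genes of the neuron list, Snap25 differed by -0.44 in bulb (limma adjusted p = 0.261), and Rbfox3, Syt1 and Syp by -0.09, -0.02 and 0.03. The list of olfactory mucosa markers, which a bulb dissection can carry along, lay at 7.02 to 8.14 in wild-type and 7.09 to 7.24 in knockout bulb, the widest range within a group of the lists named here. With any 1 bulb array left out the difference of Mid1 in bulb stayed between -2.48 and -2.34, and the part of these markers in it was not tested.

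The lists were also set between the tissues with the same fit, a comparison added after the values were seen. In wild type 40.9% of all genes passed, and 39.1% in knockout. Centring each array on its median raised hippocampus minus bulb by 0.11 in wild type over all genes and by 0.07 in knockout. The share of called genes that were higher in hippocampus was 42.7% in wild type and 49.2% in knockout, and 63.0% and 62.8% after centring, so directions are given for genes that kept theirs.

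Of 18 PP2A subunit genes, 11 differed between the tissues in wild type (61.1%), 8 of them higher in hippocampus and 3 in bulb. In knockout the counts were again 8 and 3. After centring they were 10 and 2 in wild type and 8 and 2 in knockout. The largest difference was that of Ppp2r2c, a neuronal subunit of the B55 family. Its hippocampal arrays read 11.34, 11.30 and 11.34 in wild type and 11.35, 11.39 and 11.30 in knockout. The bulb arrays read 10.46, 10.48 and 10.37 in wild type and 10.36, 10.51 and 10.35 in knockout. All hippocampal arrays lay above all bulb arrays, by 0.89 in wild type (SE 0.0666, limma adjusted p = 4.2e-08) and 0.94 in knockout (limma adjusted p = 2.24e-08). Other subunit genes higher in hippocampus in wild type were Ppp2r5c (0.71), Ppp2r3c (0.65), Strn4 (0.63), Ppp2r2a (0.53), Ppp2r2d (0.45), Ppp2r5e (0.37) and the catalytic Ppp2cb (0.29). Higher in bulb were Ppp2r5a (-0.59), Ppp2r1b (-0.49) and Ppp2r3a (-0.38), the last of which did not pass after centring (-0.27, limma adjusted p = 0.112).

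The COS-box ligases were mostly higher in bulb. Trim67, a neuronal ligase, lay at -1.13 in wild type (SE 0.115, limma adjusted p = 1.32e-06) and -1.01 in knockout, and Trim9 at -0.62 and -0.58. Together with Mid2 they made 3 of the 5 other ligase genes lower in hippocampus, beside 23.4% of all genes in wild type and 19.9% in knockout. Mid1, also lower, is left out of this count because its values chose it. Trim46, which bundles microtubules at the axon's first segment, was higher in hippocampus by 0.20 in wild type (limma adjusted p = 0.0263) and 0.26 in knockout. After centring Trim36 also passed as higher in wild-type hippocampus (0.26, limma adjusted p = 0.0117), but not in knockout (0.17, limma adjusted p = 0.0782). Among the 6 PP2A inhibitor genes, Bod1 (1.01), Arpp19 (0.79), Ensa (0.68) and Anp32a (0.31) were higher in wild-type hippocampus. In knockout all of these but Anp32a (0.17, limma adjusted p = 0.0566) passed, and after centring 4 passed in each genotype. Arpp19 and Ensa encode the small proteins through which Greatwall kinase inhibits the B55 form of PP2A. Of the 9 genes around alpha4, 6 were called in wild type and 5 in knockout, all higher in hippocampus, and 7 in each after centring. Of all genes 17.5% were called higher in hippocampus in wild type and 19.2% in knockout. Of the pathway genes, the Hedgehog receptor gene Ptch1 (-0.92), Stk36 (-0.71), Mtor (-0.51) and Sufu (-0.46) were lower in wild-type hippocampus than in bulb. So were Shh (-0.57) and Rptor (-0.32). Rheb (0.40), the gene of the GTPase that activates mTORC1, Akt1s1 (0.27), Gli3 (0.18) and Rps6 (0.18) were higher in wild-type hippocampus. In wild type the mTORC1 list had 3 genes called higher and 4 lower in hippocampus, which median centring turned to 4 and 2. In knockout it had 2 and 2, and 3 and 2 after centring. Before centring 63.6% of this list was called in wild type and 36.4% in knockout, beside 40.9% and 39.1% of all genes. The Hedgehog list had 1 higher and 5 lower in wild type (66.7% called), and 1 and 4 after centring. In knockout it had 2 and 3 (55.6% called), and 3 and 3 after centring.

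**Figure D4:**
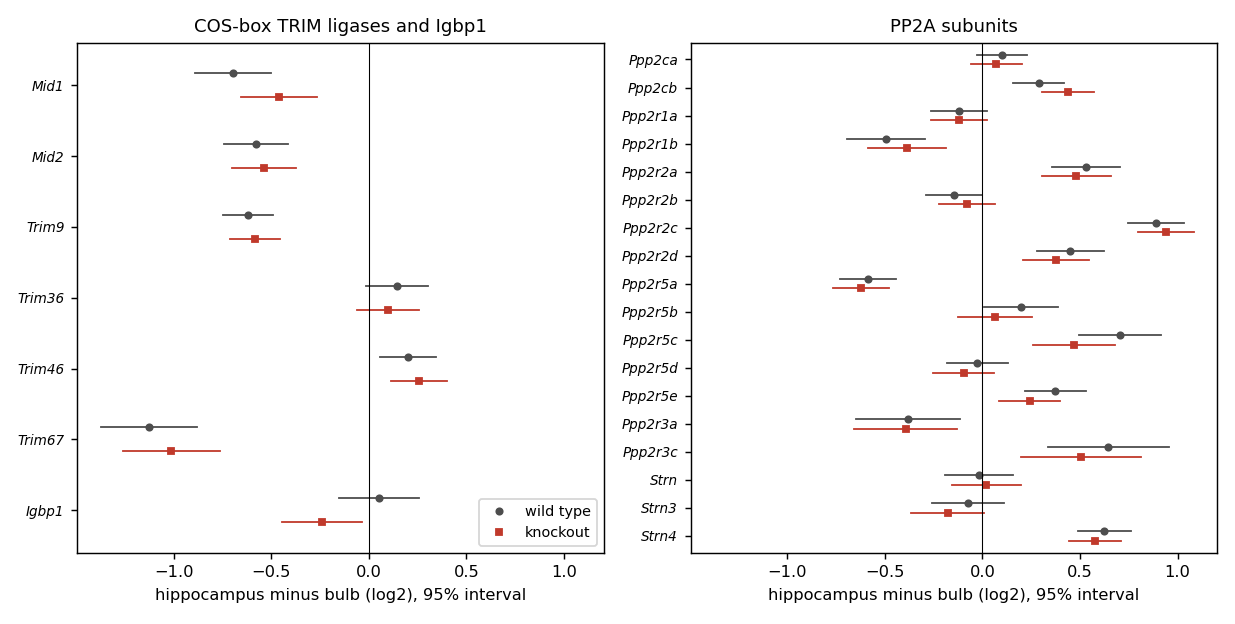
Hippocampus minus olfactory bulb on the log2 scale (horizontal axis) with limma's 95% interval (lines), wild type as grey circles and knockout as red squares. The left panel shows the 6 COS-box ligase genes and Igbp1, with Mid1 at -0.70 and -0.46, and the right panel shows 18 PP2A subunit genes, with Ppp2r2c at 0.89 and 0.94.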

How the data were processed

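Total RNA of 12 mouse samples was hybridised to 1-colour arrays, per the labels' protocols. For each probe set the authors deposited a log2 intensity per sample, made with RMA and the oligo package, per the submitters' processing notes. The sources used here give no versions and no genome build. RMA quantile-normalises the probes of all arrays together, which can hide a shift shared by most genes. Of 35556 probe sets, 21789 carry 1 gene symbol and stand for 19938 genes, each by its probe set of highest mean (999 genes had several). The tests used limma (version 3.58.1, R 4.3.3), with lmFit and eBayes on 1 model of the 4 group means, with Benjamini-Hochberg adjustment over all genes at 0.05. No gene was filtered out, and arrays carry no read depth, so their number limits the precision.

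Members and lists were chosen with earlier results of these data known. Of 62 list entries 59 were matched (Ppp2r3d, Pabir1 and Rps6kb1 were not), and of 52 markers 50. The text names the members, from each list the called genes and otherwise up to 3 of smallest p in either tissue, the called or nearest neighbours of Mid1, and the 5 genes of highest and lowest correlation with it. Other names were chosen after their values were seen, among them Gli3, Mid1ip1 and all genes named between tissues.

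Title numbers and animal codes pair hippocampus and bulb differently for a pair of wild-type animals. Deviations of paired arrays correlated with r from -0.21 to 0.25 by number and from -0.26 to 0.12 by code. Alternatives were a fit of the compared arrays only, every probe set, trend and robust moderation, array weights, median centring, dim genes left out, each array left out and the animal as a block. Figures used matplotlib 3.10.9 in Python 3.11.15.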

Additional observations from a re-analysis of the deposited data

How the results depend on the processing

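Up to 20 alternatives were run for each difference of Mid1, Mid2, Igbp1 and Ppp2ca. The difference of Mid1 between genotypes ran from -2.23 to -2.10 in hippocampus and from -2.48 to -2.34 in bulb, with both ends set by leaving out 1 array. Its tissue difference passed under every alternative run (adjusted p up to 0.000235 in wild type and 0.00566 in knockout), as did that of Mid2 (up to 0.000288 and 0.000445). No genotype difference of Mid2, Igbp1 or Ppp2ca passed under any alternative. The tissue difference of Igbp1 in knockout passed with trend and robust moderation (-0.24, adjusted p = 0.0392), with array weights (-0.24, adjusted p = 0.0118), with dim genes left out (-0.24, adjusted p = 0.0324), without wild-type bulb replicate 2 (-0.24, adjusted p = 0.0337) and without knockout hippocampus replicate 5 (-0.33, adjusted p = 0.0159). It ran from -0.33 to -0.15 with 1 array left out. That of Ppp2ca in wild type passed with median centring (0.21). With the animal as a replicate block, by number or by code, no call of the 4 genes changed. Under the replicate block by title number the tissue difference of Mid1 in wild type had an adjusted p of 0.000235 and a value of -0.70.

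The number of genes called between genotypes was 51 in hippocampus (28 to 336 over the alternatives) and 82 in bulb (35 to 136). These ranges mix unlike totals. The run on every probe set counted probe sets, of which there were 35556, and the run without dim genes tested fewer genes. The count of X-linked genes called, which includes Mid1 itself, was 1 in each tissue, with 0 of the other 741. Where it moved, it was 5 with array weights and 2 without wild-type bulb replicate 3 in hippocampus. In bulb it was 2 with trend and robust moderation, 2 with dim genes left out, 5 without wild-type bulb replicate 3 and 2 without knockout bulb replicate 5. With 3 arrays a group, differences of partner genes within the intervals given could not be told from 0.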
